A study of Ovis aries with 40 samples.

Results

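Proximal and distal lung of the same fetal sheep were compared at day 65 of gestation. The comparison took the libraries whose labels gave day 65 and proximal or distal lung, from both genotypes, which gave 8 of the 40 libraries of the series. Each of 4 fetuses gave 1 library from each region, so region was tested within 4 pairs, and WT and CF animals were also examined apart. WT fetuses were American Romney sheep bred naturally. CF fetuses were CFTR-/- and came from somatic cell nuclear transfer with 1 line of male fetal fibroblasts targeted in CFTR exon 2, so the 2 CF animals share one founding cell line and genotype cannot be told apart from nuclear transfer. Both genotypes had 2 animals, and no animal received a treatment. Tissue was labelled as epithelial, but pieces of frozen lung were homogenized whole, and COL1A1, the main fibrillar collagen of fibroblasts, lay between 1864 and 4733 CPM (counts scaled to the size of each library) in the 8 libraries, beside 104 to 212 CPM for the epithelial adhesion gene EPCAM and 198 to 260 CPM for the endothelial gene PECAM1. In such bulk tissue, fewer cells of a type and less RNA per cell cannot be told apart.

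At this age the lung is a branching tree of epithelial tubes in loose mesenchyme. The stalks that become conducting airways carry the transcription factor SOX2 and begin to form ciliated, secretory and basal cells, while the growing tips carry SOX9 and ID2 and answer FGF10 from the surrounding mesenchyme. Proximal pieces of lung also lie near the large vessels, nerves and heart, so the markers of those tissues were examined alongside the airway and signalling genes.

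Totals ran from 36178418 to 37804652 counts in the WT libraries and from 90914366 to 103139483 in the CF libraries, so depth separated the genotypes and not the regions. CFTR, the targeted gene on chromosome 4 (50644000 to 50864925, Oar_v4.0), was at 30.7 to 40.05 CPM in WT and 21.2 to 27.5 CPM in CF libraries, with no overlap. It differed by a log2 fold change of 0.12 ± 0.10 (SE) between regions. Its largest difference was in CF replicate 2, at 26.0 CPM in proximal and 20.2 in distal lung when scaled over all 40 libraries. One animal stood apart before any test. In WT replicates 1 and 2 and CF replicate 1 the regions correlated at r of 0.984 to 0.988 across the 14116 genes that averaged at least 1 on the log2 CPM scale, and the root mean square (RMS) log2 difference was 0.339 to 0.344. In CF replicate 2 the correlation was 0.903 and the RMS difference 0.928. Both of its libraries correlated more closely with the same region of the other CF animal, at 0.961 in distal and 0.972 in proximal lung. The region difference of CF replicate 2 also ran with gene length. Its median went from -0.72 to 0.50 between the shortest and the longest of 10 groups of genes ordered by length, against -0.11 to 0.07 over the other 3 animals. WT replicate 1 had more airway cell transcripts in its distal than in its proximal library, and CF proximal replicate 1 held heart muscle transcripts. What part the library plays in the differences of CF replicate 2 was not tested, so gene values over 0.12 in size on the log2 scale that moved by over 1.5 times or changed sign without that animal are also given without it.

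**Figure D1:**
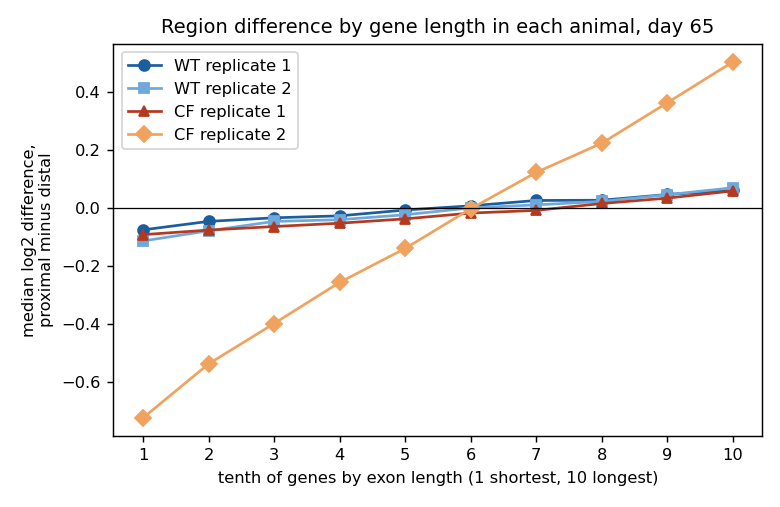
Median log2 difference (proximal minus distal, y axis) in 10 groups of the 18024 genes ordered by exon length (x axis), 1 line per animal at day 65. CF replicate 2 runs from -0.72 to 0.50, and the lines of the other 3 animals stay between -0.11 and 0.07.

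No gene passed an adjusted p of 0.05 with a log2 fold change of 0.58 (1.5-fold) between proximal and distal lung over the 4 pairs. Of 18024 genes tested with edgeR's paired quasi-likelihood test, 0 (0%) were called, the smallest adjusted p was 0.582, and 583 (3.23%) had an unadjusted p below 0.05. DESeq2 called 2 genes on the same counts, MLIP and LOC101119706, both higher in proximal lung, and limma-voom called 0. The same direction in all 4 animals was found for 1970 genes higher in proximal lung (10.9%) and 2331 lower (12.9%). The median of all log2 fold changes was 0.00, and the median size of a change was 0.20. This does not show that the regions are alike, since 4 pairs leave 3 residual degrees of freedom and the pairs differed widely.

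MLIP, which encodes a lamin-binding protein known mainly from heart and skeletal muscle (chromosome 20, 6287937 to 6452815, Oar_v4.0), had the largest difference that was shared by every animal. It was at 1.00 CPM in WT proximal replicate 1, 0.145 in WT proximal replicate 2, 15.4 in CF proximal replicate 1 and 3.07 in CF proximal replicate 2. Both WT distal libraries had 0 counts, and the CF distal libraries had 0.718 and 0.0618 CPM. Within every animal the proximal library was the higher one, although WT proximal replicate 2 lay below CF distal replicate 1. In counts, WT replicate 1 had 36 in proximal and 0 in distal lung, at least 9.30-fold higher by the lower limit of the exact 95% counting interval. WT replicate 2 had 5 and 0, where that limit was 0.916, so its counts alone do not separate the regions. CF replicate 1 had 1572 and 72 counts, 21.4-fold higher (exact 95% interval 16.9 to 27.5). CF replicate 2 had 314 and 6, 49.6-fold higher (22.6 to 136). These intervals cover counting error only and take each count as independent. Most of these counts were even, and whether both reads of a pair were counted was not tested. If both were, the intervals are too narrow and the limit of 9.30 is too high. The mean of the 4 log2 differences was 4.29 ± 1.20 (SD, n = 4). The fitted log2 fold change was 5.12 ± 0.51 (SE) with an unadjusted p of 5.04e-05 and an adjusted p of 0.582 by edgeR's quasi-likelihood test, while DESeq2 gave an adjusted p of 2.34e-11. Without CF replicate 2 it was 4.71, in one fit of all 40 libraries 6.64, and without CF replicate 1 MLIP did not pass the filter on low counts.

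The 16 region pairs of days 80 to 147 played no part in choosing MLIP. On a scale set over all 40 libraries, it was higher in proximal lung in 16 of 16 of them, with a mean log2 difference of 3.4995 ± 1.86 (SD, n = 16; exact two-sided sign-flip permutation test, p = 3.05e-05, the smallest that 16 pairs can give). With the WT day 100 libraries of a region, which carry one animal label, counted as 1 animal, the difference was in the same direction in 15 of 15 animals (exact permutation p = 6.1e-05, also the smallest possible). Later proximal libraries had 0.410 to 6.25 CPM (median 0.957) and later distal libraries 0 to 1.10 CPM (median 0.0764). The ranges overlapped between animals. The pair that differed least was CF day 120 replicate 2, at 1.22 CPM in proximal and 1.10 in distal lung, where both libraries held 105 counts and their scaling alone set the direction. MLIP was thus a low transcript, ordered the same way in all 20 pairs with 1 of them a tie in counts.

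**Figure D2:**
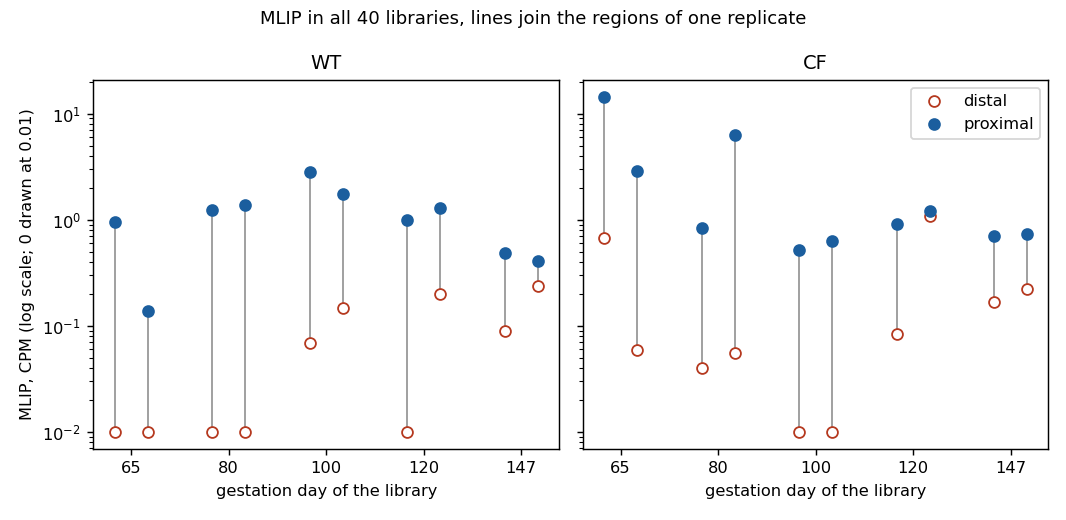
MLIP in all 40 libraries as CPM on a log axis, scaled over the whole series, by gestation day (x axis), with WT left and CF right. Filled points are proximal and open points distal libraries, lines join the regions of one replicate, and a library with no count is drawn at 0.01; the proximal point is the upper one in 20 of 20 pairs, by scaling alone in CF day 120 replicate 2.

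With no gene called, the 10 largest changes in each direction were taken among genes with one direction in all 4 animals, an unadjusted p below 0.05 and a mean log2 CPM no lower than 1, so these were picked for their values. After MLIP came MYOZ2, a calcineurin-binding protein of the muscle Z disc, at 3.67 ± 0.90 (SE), and LOC101111723, which RefSeq names MYH8, a perinatal skeletal muscle myosin, at 1.55 ± 0.33. HCN4, the pacemaker channel of the heart, was at 1.52 ± 0.50, and MYH7B, a slow-type myosin heavy chain, at 1.48 ± 0.41. Each of these had an adjusted p of 0.582 by edgeR. Some of these values stood on 1 library. MYOZ2 was at 21.6 CPM in CF proximal replicate 1 and at 0 to 0.783 CPM in the other 7 libraries, and HCN4 was at 11.9 CPM against 0.290 to 1.64. The remaining genes of the 10 were RGS5, a marker of pericytes, at 1.47 ± 0.38, ADAMTSL3, a matrix glycoprotein, at 1.49 ± 0.54, and LOC105602054, GTF3C4 and PTAR1 at 1.33 to 1.45. These last 4 stood on CF replicate 2, and without it they were at 0.88, 0.83, 0.71 and 0.87 in that order. RGS5 was at 8.66, 6.73, 9.22 and 10.4 CPM in the proximal libraries of WT replicates 1 and 2 and CF replicates 1 and 2, and at 6.75, 2.50, 3.41 and 1.62 CPM in the distal libraries in the same order. Its proximal and distal ranges touched only at WT proximal replicate 2 and WT distal replicate 1, the former just below the latter. At day 80, 5 of the 9 genes of these 10 that were tested again had the same direction, and the RGS5 difference was -0.07 on the log2 scale.

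The 10 largest shared decreases were smaller, between -0.74 and -1.03. They held PLAC8 at -0.93 ± 0.25, ANGPTL1, a secreted angiopoietin-like protein, at -0.84 ± 0.26, and CHI3L1, a chitinase-like glycoprotein, at -0.82 ± 0.28. LOC105606599, which RefSeq names HOXA7, a positional homeobox gene, was at -0.74 ± 0.19. LOC106991094, PPP1R1A, LOC105614978, LOC105603669 and DLX3 were also among them. Without CF replicate 2, LOC106991094 went from -1.03 to -0.68 and LOC105603669 from -0.76 to -0.46. All 10 carried an adjusted p of 0.582 by edgeR. HOXA7 was at 20.7 and 22.5 CPM in WT proximal, 41.4 and 50.6 in WT distal, 14.4 and 6.59 in CF proximal and 15.8 and 10.4 in CF distal lung (replicates 1 and 2 throughout). The WT regions did not overlap and the CF regions did. At day 80, 5 of the 10 had the same direction. HOXA7 was then at -1.38, ANGPTL1 at -0.60 and PLAC8 at -0.51, while CHI3L1 was at 0.72, LOC106991094 at 0.25, PPP1R1A at 0.24 and LOC105603669 at 0.18.

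Of 181 genes higher in proximal lung under the same limits, 157 had their largest difference in CF replicate 2, and of 266 lower genes 221 did. The median exon length was 6119 bases among the higher and 1534 among the lower genes, against 2940 over all genes tested. In the day 80 animals 36 of 180 of the higher genes that were tested again and 57 of 266 of the lower ones had the same direction. Most genes of both sets thus went the other way at day 80. The share over all genes was not computed.

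Of the motile cilia list, 23 of 25 genes were tested and 0 were called, and its members lay on opposite sides in the CF animals and in WT replicate 1. In CF replicate 1 all 23 were higher in proximal lung and in CF replicate 2 22 were, with medians of 0.73 and 1.36 on the log2 scale. In WT replicate 1 all 23 were lower in proximal lung, with a median of -1.09, and in WT replicate 2 17 were lower and 6 higher, with a median of -0.31. Whether the pieces or labels of WT replicate 1 were exchanged was not tested, and an exchange would turn round each of that animal's values, in the pooled results too. MLIP is among these values, with 36 counts in proximal and 0 in distal lung of that animal. Both CF differences were above 0 and both WT differences below 0 for 16 of 23 members, where 6.57% of all genes did so and 5.19% of those averaging at least 1 on the log2 CPM scale. The opposite arrangement was found for 0 members and 5.28% of all genes. The 16 rest on the direction of WT replicate 1, and would be 0 if its libraries had been exchanged. FOXJ1, the master regulator of motile cilia, was at 30.0 and 8.01 CPM in WT proximal, 73.7 and 9.35 in WT distal, 42.4 and 40.1 in CF proximal and 25.6 and 19.7 in CF distal libraries. The WT distal library of replicate 1 was thus the highest of all 8, the CF proximal libraries lay above the CF distal ones, and both WT replicate 2 libraries were low.

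TEKT1, a tektin of the ciliary doublet microtubules, was at 18.3 and 0.928 CPM in WT proximal, 46.8 and 2.50 in WT distal, 14.8 and 14.5 in CF proximal and 6.85 and 5.78 in CF distal lung. DNAH5, a heavy chain of the outer dynein arm, was at 19.1, 1.68, 59.5, 1.68, 13.3, 18.2, 4.96 and 3.13 CPM in that order, so both WT replicate 2 libraries were level. Over the whole list, summed levels were 130 to 694 CPM in WT and 212 to 372 CPM in CF libraries. Both libraries of WT replicate 2 (130 and 152 CPM) lay below the other 6.

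**Figure D3:**
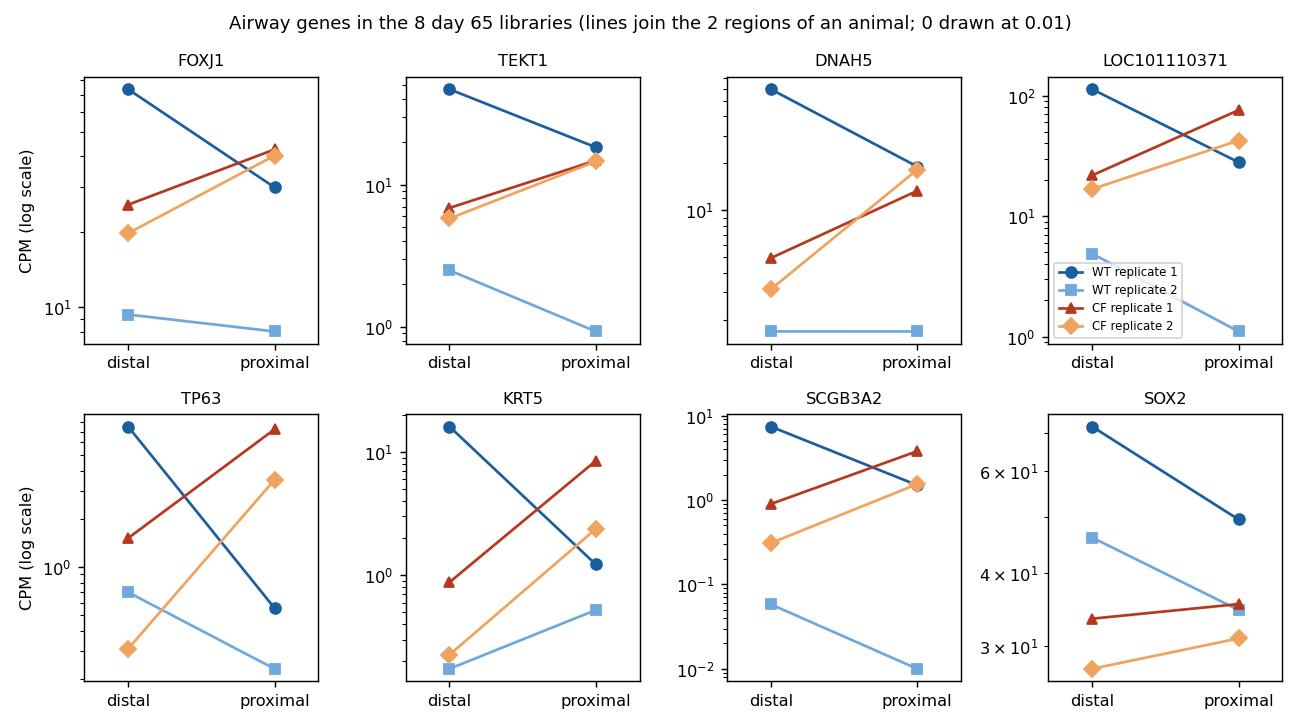
CPM on log axes for 8 airway genes in distal and proximal lung at day 65; lines join the 2 regions of an animal, and a library with no count is drawn at 0.01. Lines of both CF animals rise from distal to proximal lung in all 8 panels, and the line of WT replicate 1 falls in all 8.

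Basal and secretory cell genes were split by genotype less evenly. TP63, the transcription factor of basal cells, was at 0.555 and 0.232 CPM in WT proximal, 7.53 and 0.697 in WT distal, 7.24 and 3.51 in CF proximal and 1.52 and 0.309 in CF distal libraries. KRT5, the basal cell keratin, was at 1.22 and 0.522 in WT proximal, 16.05 and 0.174 in WT distal, 8.48 and 2.37 in CF proximal and 0.877 and 0.227 in CF distal lung. WT replicate 2 went with the CF animals in KRT5 and against them in TP63. Of the 14 basal cell genes tested, 13 and 12 were higher in proximal lung of CF replicates 1 and 2, 3 in WT replicate 1 and 8 in WT replicate 2. SCGB3A2, a secretoglobin of airway secretory cells, was at 1.4997 and 0 CPM in WT proximal, 7.42 and 0.0581 in WT distal, 3.79 and 1.54 in CF proximal and 0.897 and 0.309 in CF distal libraries. SOX2 differed by 0.08 and 0.17 in CF replicates 1 and 2 and by -0.53 and -0.41 in WT replicates 1 and 2. Over 14 tested genes of the airway progenitor and secretory list the medians were -0.64, -0.20, 0.38 and 0.39 in WT replicates 1 and 2 and CF replicates 1 and 2. Medians of the neuron list (21 tested) were -0.83, 0.00, 1.13 and 1.63, and those of the glia list (13 tested) were -0.69, 0.41, 1.21 and 1.04. In both lists WT replicate 1 alone had a median below 0, and in the glia list 9 of 13 genes were higher in proximal lung of WT replicate 2.

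**Figure D4:**
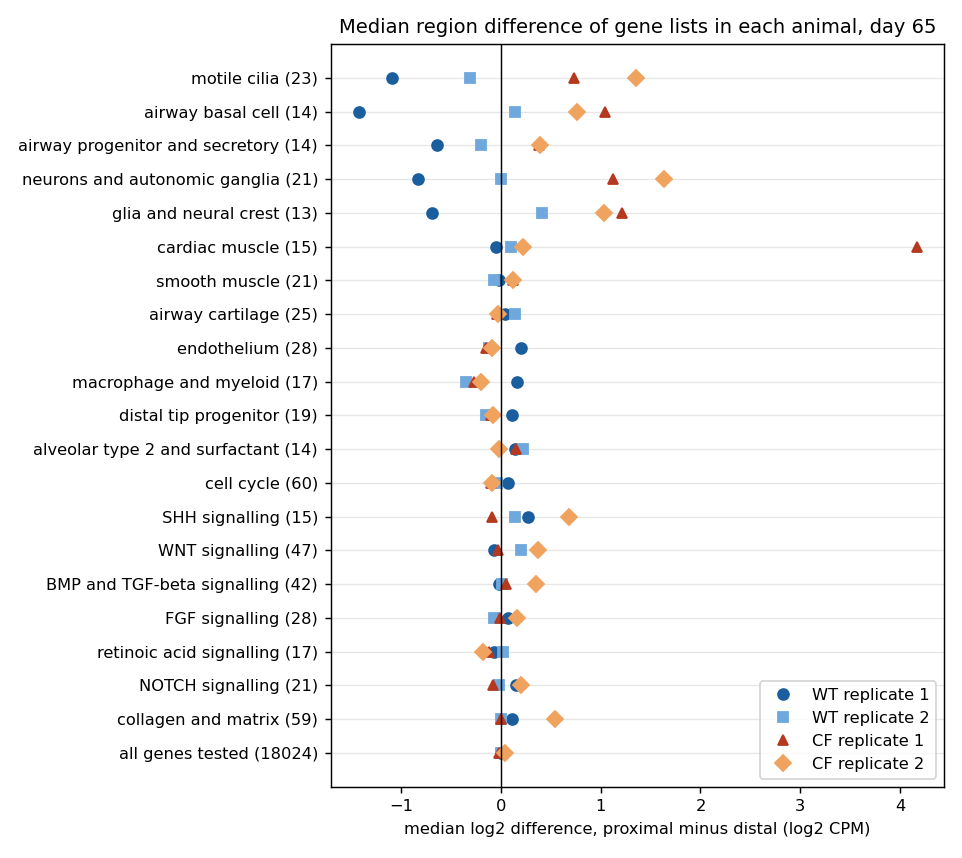
Median log2 difference (proximal minus distal lung) of 20 gene lists and of all genes tested, 1 point per animal at day 65, with the number of genes tested in parentheses. Cilia, basal, secretory, neuron and glia lists spread by animal from -1.42 to 1.63, the heart list stands out in CF replicate 1 alone at 4.16, and the distal tip, alveolar, cell cycle and most signalling lists stay near 0.

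The region effect was tested directly for a difference between the genotypes, since an effect in one and not in the other does not show that they differ. Of 18024 genes 0 (0%) passed, with a smallest adjusted p of 0.181, and 625 (3.47%) had an unadjusted p below 0.05. Of these, 551 (3.06% of all genes) were shifted towards proximal lung in CF relative to WT and 74 (0.411%) the other way. Among list members, 15 of 23 cilia genes, 7 of 14 secretory genes, 5 of 14 basal genes and 8 of 21 neuron genes were in the first set and 0 in the second. DESeq2 called 163 genes in the first direction and 3 in the other. The edgeR count depended on which animals were in the fit. Without CF replicate 2, 88 genes were called in the first direction and 3 in the other, on 1 residual degree of freedom and with the lone CF pair assumed to vary like the WT pairs. Those 88 (0.508% of the 17325 genes tested) held TEKT1, RSPH1, CAPSL and DNAH5 of the cilia list, TP63 and KRT15 of the basal list, SCGB3A2, and 9 of 13 heart muscle genes. Without CF replicate 1, 4554 genes were called, and the balance was the opposite one, with 2176 in the first direction and 2378 in the other. Without WT replicate 1, whose direction is in doubt, 0 genes were called, and of 320 with an unadjusted p below 0.05, 236 (1.27% of 18571 tested) were in the first direction and 84 (0.452%) in the other. The first set then held 6 of 23 cilia, 2 of 14 secretory, 2 of 14 basal and 3 of 21 neuron genes, and the second 0 of each.

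The gene with the smallest p of the difference was LOC101110371, unnamed in RefSeq, on chromosome 21 (40002136 to 40005406, Oar_v4.0). It was at 27.9 and 1.10 CPM in WT proximal, 113 and 4.88 in WT distal, 75.6 and 42.3 in CF proximal and 21.8 and 16.7 in CF distal lung. Its log2 differences were -2.01 and -2.12 in WT and 1.80 and 1.34 in CF animals, and the difference between genotypes was 3.63 (unadjusted p = 1.01e-05, adjusted p = 0.181 by edgeR). The 4 animals moved by similar amounts, in opposite directions by genotype. With the trend on gene length removed, a step added after the data were seen, it was the single gene called, at 3.94 with an adjusted p of 0.0159. Next came TSPAN1, a tetraspanin of secretory epithelia, at 2.43, TEKT1 at 2.605, UGT2A1, a glucuronosyltransferase, at 4.90, and DRC3, a subunit of the ciliary dynein regulatory complex, at 2.22. TBX20, a cardiac transcription factor, was at 8.90 and rested on few counts outside CF proximal replicate 1. LOC101111910 (SEC14L3 in RefSeq), RGS22, LOC101116286 and SULT1E1, an oestrogen sulfotransferase, followed at 2.17 to 2.73. All 10 had both WT animals lower and both CF animals higher in proximal lung, and adjusted p-values of 0.181 to 0.635. In the other direction LOC101108414 was at -1.32, CXCL10, an interferon-induced chemokine, at -1.22 and GALNT14, a glycosyltransferase, at -1.42. CXCL10 was at 87.6 and 146 CPM in WT proximal, 63.6 and 140 in WT distal, 39.9 and 49.3 in CF proximal and 81.4 and 92.3 in CF distal libraries, so the CF regions did not overlap and the WT regions did.

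Within WT alone 0 genes (0%) and within CF alone 0 genes (0%) were called. Unadjusted p-values below 0.05 were counted for 320 genes (1.78%) in WT and 1849 (10.3%) in CF. In WT 0.305% of all genes were higher and 1.47% lower in proximal lung at that limit, and in CF 5.75% were higher and 4.51% lower. Of the cilia list, 10 of 23 were among those lower in WT and 14 of 23 among those higher in CF. The WT share takes in WT replicate 1, whose direction is in doubt. All 23 were lower in that animal (median -1.09), against 17 lower and 6 higher in WT replicate 2 (median -0.31). WT results depended on which CF animals shared the fit. Without CF replicate 1 there were 42 calls in WT and without CF replicate 2 27 calls. In CF, DESeq2 called 102 higher and 4 lower genes, and edgeR called 5556 genes without CF replicate 1 and 49 without CF replicate 2, each on 1 residual degree of freedom. With the CF pairs crossed, an alternative added after the data were seen, 857 genes were called higher and 738 lower in CF. DESeq2 called 6 genes in WT, all lower in proximal lung, which were LOC101110371, TSPAN1, TEKT1, UGT2A1, SULT1E1 and LOC101122940 (A2M in RefSeq, a plasma protease inhibitor).

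Heart muscle genes were high in 1 proximal library. All 15 tested genes of the cardiac list had their highest level in CF proximal replicate 1, and 7 of them exceeded every other library more than 10-fold. MYH7, the slow cardiac myosin heavy chain, was at 131 CPM there and at 0.406 to 1.31 CPM in the other 7 libraries. TNNT2, cardiac troponin T, was at 100.0 CPM against 0 to 0.618, and MYL4, the atrial essential light chain, at 395 against 1.00 to 7.82. ACTC1, cardiac actin, was at 347 CPM there, at 19.3 in the distal library of the same animal and at 13.1 in WT proximal replicate 2, with 0.116 to 1.299 in the other 5 libraries. The list's median difference was 4.16 in CF replicate 1, 0.22 in CF replicate 2, -0.05 in WT replicate 1 and 0.10 in WT replicate 2. MYL7, the atrial regulatory light chain, did not enter the main test and was the 1 gene called when the filter was removed or tightened and when either WT animal was left out. It had 40409 counts in CF proximal replicate 1 and 0 to 20 in each of the other 7 libraries, so its call stood on that library. At day 80, MYH7 was at 44.8 CPM in CF proximal replicate 2 and at 0.576 to 1.76 CPM in the other 7 libraries. MYH8, MYH7B, MYOZ2 and HCN4 were also higher in proximal lung of WT replicate 2, by 1.70, 2.13, 2.48 and 1.90, and ACTC1 had 451 counts there against 4 in the distal library. The skeletal muscle list (10 tested) had 9 genes higher in that animal, with a median of 0.75. The part of heart or skeletal muscle in the values of MLIP was not tested.

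**Figure D5:**
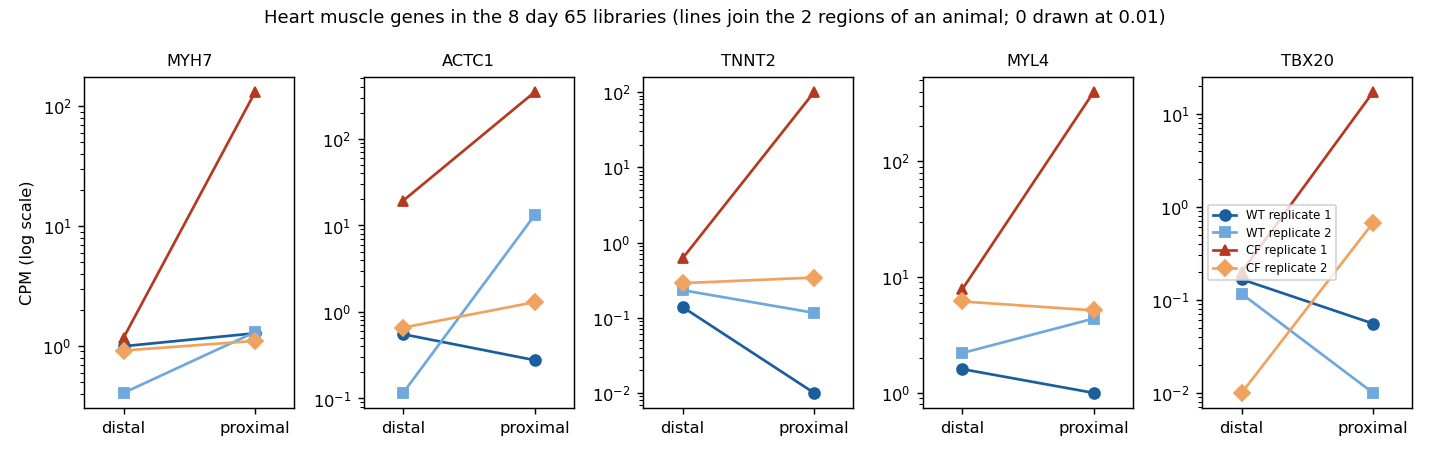
CPM on log axes for 5 heart muscle genes in distal and proximal lung at day 65; lines join the regions of an animal, and a library with no count is drawn at 0.01. The proximal library of CF replicate 1 is the highest in all 5 panels, at 131 CPM for MYH7.

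For the distal tip progenitor list (19 tested) the medians were 0.11, -0.15, -0.10 and -0.08 in WT replicates 1 and 2 and CF replicates 1 and 2, and 0 genes had an unadjusted p below 0.05. By that limit 2 of 14 alveolar type 2 genes were higher and 0 lower, and 0 of 17 type 1 genes were higher and 1 lower, beside 1.53% and 1.71% of all genes. SOX9 was at 101 and 98.6 CPM in WT proximal, 95.8 and 128 in WT distal, 129 and 115 in CF proximal and 142 and 134 in CF distal libraries, a log2 fold change of -0.16 ± 0.10 (SE). ID2 was at -0.22 ± 0.17 (-0.01 without CF replicate 2), ETV5, a target of FGF signalling, at 0.07 ± 0.10, and NKX2-1, the lung epithelial transcription factor, at -0.16 ± 0.08. Thus the SOX9 regions overlapped and 3 of 4 animals had more in distal lung. SFTPC, surfactant protein C, was at 157 to 460 CPM in proximal and 196 to 379 CPM in distal libraries and differed by -0.06 ± 0.21, or 0.22 without CF replicate 2. SFTPB, surfactant protein B, was higher in proximal lung in 4 of 4 animals by 0.27 ± 0.10 (SE, adjusted p = 0.582 by edgeR), and by 0.40 at day 80. AGER, a type 1 cell receptor, was at -0.23 ± 0.20, or 0.01 without CF replicate 2.

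WNT2, a mesenchymal ligand of distal lung, was at 52.0 and 74.6 CPM in WT proximal, 54.5 and 101 in WT distal, 35.8 and 52.3 in CF proximal and 56.4 and 86.1 in CF distal libraries. It was lower in proximal lung in 4 of 4 animals, by 0.07 to 0.72 on the log2 scale, and the CF regions did not overlap. Its log2 fold change was -0.47 ± 0.13 (SE, adjusted p = 0.582 by edgeR), -0.39 without CF replicate 2 and -0.25 at day 80. ALDH1A1, a retinaldehyde dehydrogenase, was also lower in 4 of 4 animals, by -0.29 ± 0.10. At an unadjusted p below 0.05, 0 of 47 tested WNT genes lay above 0 and 3 below, beside 1.53% and 1.71% of all genes. WNT7B, the epithelial WNT ligand, was at -0.06 ± 0.10, and the targets AXIN2 and LEF1 were at 0.26 ± 0.14 (0.14 without CF replicate 2) and -0.02 ± 0.09.

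In the hedgehog pathway the ligand SHH was at 7.67 and 6.85 CPM in WT proximal, 7.25 and 7.37 in WT distal, 9.87 and 11.6 in CF proximal and 10.6 and 3.09 in CF distal libraries. Only CF replicate 2 set its regions apart, by 1.90. The receptor PTCH1 (0.18 ± 0.12), the effector GLI1 (0.27 ± 0.16) and the inhibitor HHIP (0.18 ± 0.11), all of them targets of the pathway, had smaller differences. Without CF replicate 2 these 4 genes were at -0.04, 0.08, 0.10 and 0.10. By the same limit, which 1.53% of all genes passed as higher and 1.71% as lower, 1 of 15 hedgehog genes was higher and 0 were lower, and the list median of 0.25 became 0.10 without CF replicate 2. FGF10 was at 0.39 ± 0.25 and at 0.07 without that animal. Its receptor FGFR2 was at 0.03 ± 0.09 and the feedback phosphatase DUSP6 at -0.03 ± 0.08, the latter between 70.4 and 88.1 CPM in all 8 libraries. In the FGF list 0 of 28 genes were below 0.05 in either direction. BMP4 was at -0.11 ± 0.09 and its antagonist NOG at 0.44 ± 0.27, with 1 of 42 genes higher and 1 lower in the BMP and TGF-beta list. In the retinoic acid list 0 of 17 were higher and 1 was lower, and the receptor RARB was at 0.05 ± 0.11. In the NOTCH list 1 of 21 was higher and 1 lower, with the receptor NOTCH1 at 0.15 ± 0.12 (0.06 without CF replicate 2) and the target HEY1 at -0.17 ± 0.16. Medians of these lists ran from -0.04 to 0.25 beside 0.00 over all genes.

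Contractile genes of smooth muscle did not move as one. ACTA2, smooth muscle actin, was at 107 and 94.6 CPM in WT proximal, 177 and 115 in WT distal, 422 and 368 in CF proximal and 477 and 515 in CF distal libraries. Regions did not overlap within either genotype, and CF libraries were above all WT libraries. Its log2 fold change was -0.42 ± 0.12, with TAGLN at -0.35 ± 0.10 and ACTG2 at -0.40 ± 0.12, each lower in proximal lung in 4 of 4 animals. MYH11, the smooth muscle myosin heavy chain, was at 0.06 ± 0.13. FLNC, a filamin of muscle, went the other way at 79.8 and 58.5 CPM in WT proximal, 59.1 and 43.9 in WT distal, 165 and 135 in CF proximal and 128 and 80.3 in CF distal lung, a log2 fold change of 0.49 ± 0.09 in 4 of 4 animals. ACTA2, TAGLN, ACTG2 and FLNC had an adjusted p of 0.582 and MYH11 of 0.836 by edgeR. At day 80 ACTA2 was at 0.04, ACTG2 at 0.28 and FLNC at 0.01. In the smooth muscle list 2 of 21 genes were higher and 3 lower by the unadjusted limit of 0.05, beside 1.53% and 1.71% of all genes.

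The macrophage list (17 tested) held 0 higher and 3 lower genes by the unadjusted limit of 0.05, beside 1.53% and 1.71% of all genes. Its animals were divided, with 13 of 17 genes higher in proximal lung of WT replicate 1 (median 0.16) and 3, 0 and 6 in WT replicate 2 and CF replicates 1 and 2 (medians -0.34, -0.27 and -0.20). CD68, a lysosomal protein of macrophages, was lower in proximal lung in 4 of 4 animals by -0.32 ± 0.10, and TYROBP, an adaptor of myeloid receptors, by -0.68 ± 0.22, both with an adjusted p of 0.582 by edgeR. TNXB, tenascin X of connective tissue, was higher in 4 of 4 animals by 1.15 ± 0.32. In the airway cartilage list 1 of 25 genes was higher and 1 lower, with a median of 0.20, or 0.05 without CF replicate 2. COL2A1, the cartilage collagen, was at -0.02 ± 0.13, ACAN, aggrecan, at 0.26 ± 0.42, and SOX6, a cartilage transcription factor, at 0.59 ± 0.19, and without that animal they were at 0.07, -0.13 and 0.43. In the cell cycle list (60 tested) 0 genes were below 0.05, and TOP2A, a topoisomerase of dividing cells, was at 0.08 ± 0.09. Over 42 lists the median log2 fold change ran from -0.37 to 1.23, and 36 lay within 0.25 of 0.

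Other animals at day 80 had 0 of 17949 genes (0%) called between regions and 304 (1.69%) with an unadjusted p below 0.05, of which 1.25% of all genes were higher and 0.446% lower in proximal lung. Of the cilia list 3 of 23 were among the higher and 0 among the lower ones. DESeq2 called 2 there, MLIP and MUC13. The test of the region effect at day 80 against day 65 called 0 of 18825 genes (0%), with 828 (4.40%) at an unadjusted p below 0.05, 1.27% of all genes with a more positive effect at day 80 and 3.13% with a more negative one. Cilia genes had medians of 1.495 and 1.44 in the day 80 CF animals and -0.20 and 0.04 in the WT animals, so the CF animals were again higher in proximal lung and the WT animals lay near 0. For basal cell genes the medians were 1.65 and 3.21 in CF and -0.01 and 0.33 in WT. Of the 10 genes with the smallest p for the genotype difference at day 65, 9 were higher in proximal lung of both day 80 CF animals and 4 were also lower in both WT animals. FOXJ1 was at 73.5 and 45.4 CPM in CF proximal and 19.8 and 21.4 in CF distal libraries at day 80. In WT it was at 21.0 and 49.0 in proximal and 26.7 and 46.9 in distal libraries. The CF regions were apart at both ages, and at day 80 the WT values followed the animal more than the region. The genotype difference was not tested at day 80.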

How the data were processed

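RNA from pieces of fetal sheep lung was sequenced as oligo-dT primed libraries (100 bp paired ends, NovaSeq). The authors aligned reads to Oar_v4.0 with STAR (2.6 in the submitters' processing notes, another version in the methods) and deposited whole-number counts per gene from featureCounts 1.6.3 for 24478 genes. Strandedness of counting was not given in the sources used here. Of 40 libraries, the 8 of day 65 were the subject and the 8 of day 80 the closest comparison. The counts were tested here with edgeR 4.0.16 in R 4.3.3 (legacy quasi-likelihood, TMM, filterByExpr with a minimum count of 10 and total of 15, animal as block plus region, Benjamini-Hochberg), and a gene was called at an adjusted p of 0.05 and a log2 fold change of 0.58. The study stated 0.001 and compared ages and genotypes, not regions, so the block was chosen here. Genotype effects came from one fit of the 8 libraries. CPM used TMM over the 8 libraries, and log2 CPM a prior count of 2. The pooled day 65 test and the CF minus WT test were tried on simulated data, with the same spread set for all genes. The other tests were not tried in this way.

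Labels gave both regions of a number the same animal. Deviations of equal numbers from the genotype and region mean correlated at 0.79 in WT and -0.31 in CF. WT day 65 replicate 2 shares its animal label with a CF day 100 library and was placed by its title. Of 946 list symbols in 42 lists, 893 were in the table (25 through RefSeq gene IDs, used for names only) and 814 were tested. Named genes were those of the lists that were called or, with none called, the first tested member of a list, members of the signalling lists and CFTR. Other named genes were chosen after their values were seen, and the 10 largest shared changes replaced a rule for called genes, which gave none. One gene among the 10 largest decreases is not reported here. Members and lists were chosen with earlier results of these data known. Alternatives were RLE factors, DESeq2 1.42.0, limma-voom 3.58.1, bias-adjusted quasi-likelihood, no filter or a CPM minimum of 1, an adjusted p of 0.001, no replicate block, one fit of 40 libraries, thinned counts and each animal left out. A fit that subtracted each library's smooth trend over exon length (lowess, span 0.3) and a crossed pairing of the CF libraries were added after the data were seen. Nothing says whether samples of an animal were processed apart, so p-values measure how the region difference varied between these animals, library variation included. A further deposited file holds the same CF counts, gene for gene, and was not used.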

Additional observations from a re-analysis of the deposited data

Results flagged for a closer look

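CF replicate 2 stood apart from the other 3 animals in the RMS log2 difference between its regions, at 0.928. Its paired log2 difference was also far from the others for ADAMTSL3 (3.53), SFTPC (-0.90), SHH (1.90), FGF10 (1.38), SOX6 (1.08), COL1A1 (1.34) and the median of the elastic fibre list (0.50). CF replicate 1 stood apart in the median of the cardiac muscle list, at 4.16. Of 88 genes and 42 lists examined, 6 genes and 2 lists had such an animal, where chance alone marks about 1 in 20.

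For 27 genes and 8 lists both CF animals differed between regions in one direction and both WT animals in the other, by sign alone. In DNAH5 WT replicate 2 was level between its regions. All of them rest on the direction of WT replicate 1, and none would keep the pattern if its libraries had been exchanged. Of all genes, 6.57% had CF above and WT below 0 and 5.28% the reverse, and 13 of the 27 genes were among those examined because of their difference between genotypes, so the 27 is no measure of how common the pattern is. The difference between genotypes was tested for each gene, and none passed an adjusted p of 0.05 by edgeR. It was positive on the log2 scale (CF minus WT) for LOC101110371 (3.63), TSPAN1 (2.43), TEKT1 (2.605), UGT2A1 (4.90), DRC3 (2.22), TBX20 (8.90), LOC101111910 (2.69), RGS22 (2.58), LOC101116286 (2.17), SULT1E1 (2.73), FOXJ1 (1.66), DNAH5 (2.91), SOX2 (0.60), SCGB3A2 (4.60), TP63 (5.72), CHGB (4.25), TNNT2 (6.04), MYH11 (0.40), ACAN (1.67), SOX10 (6.22) and ELN (1.01). It was negative for LOC101108414 (-1.32), CXCL10 (-1.22), GALNT14 (-1.42), AGER (-0.71), WNT7B (-0.19) and COL2A1 (-0.46). The list medians of that difference, which were not tested, were 0.87 for airway progenitor and secretory genes, 1.66 for motile cilia, 0.85 for neuroendocrine cells, 0.75 for submucosal glands, 0.13 for airway cartilage, 0.13 for smooth muscle, -0.62 for skeletal muscle and 0.35 for hypoxia and glycolysis. For airway cartilage the median of the gene differences is positive although the medians by animal are above 0 in both WT (0.04 and 0.15) and below 0 in both CF animals (-0.03 and -0.03).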

How the results depend on the processing

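At day 65, with the animal as replicate block, edgeR called 0 genes. Of its alternatives, DESeq2 called 2 genes, no filter 1 and the stricter filter 1, and all others with both genotypes complete called 0. Without the replicate block, 0 genes were called in each of the 6 comparisons. For WT alone, DESeq2 called 6. For CF alone, DESeq2 called 106 (102 higher and 4 lower in proximal lung), no filter 1, the stricter filter 1, and the fit of 40 libraries 1 (SLC1A1). For CF minus WT, DESeq2 called 166, the fit of 40 libraries 2 (SLC1A1 and CRISP3) and removal of the length trend 1. For day 80 DESeq2 called 2 and for day 80 minus day 65 it called 1 (CDK3). Leaving out 1 animal gave 0 to 1 genes at day 65, 0 to 42 in WT, 1 to 5556 in CF, 0 to 4554 for CF minus WT, 0 to 0 at day 80 and 0 to 0 for the difference between ages. The 5556 and 4554 came without CF replicate 1, with 1 residual degree of freedom. Crossing the pairs of the CF libraries, whose equal numbers deviated in opposite directions, called 0 genes at day 65, 1595 in CF and 0 for CF minus WT. The cause of these changes was not tested.

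No list member tested at day 65 was called in the pooled comparison under these alternatives. MYL7, a cardiac list member that the filter removed, was the gene called without a filter, under the stricter filter and without either WT animal. Over 168 gene values and their alternatives no call was in the opposite direction, 14 genes were called under at least 1 alternative, and 63 changed sign without being called. Depth limits WT values of low genes such as MLIP most, at 36178418 to 37804652 counts. With 2 animals a genotype, a difference that misses the threshold is not shown to be absent.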
